A study of Mus musculus with 8 samples.

Results

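The genes of cholesterol synthesis and its control by sterol regulatory element-binding protein 2 (SREBP2) were examined in mouse liver after intraportal infusion of a gut microbial metabolite. They were a named list of 31 genes, put together by their known roles, of 35975 genes in the count table. Of the 31, 19 encode enzymes of the pathway, 4 encode its regulators, and 8 encode proteins of sterol transport, receptor turnover, esterification or ketone body use. All 31 held at least 10 counts in each of the 8 livers and were therefore among the 12883 genes tested. The study infused C57BL/6 mice (C57BL/6J in its methods) for 2 weeks through a portal vein cannula from an implanted osmotic pump, and each of the 8 samples was the liver of 1 mouse, read out by RNA sequencing. The 4 control mice received normal saline, and the other 4 received 4-hydroxyphenylacetic acid (4-HPAA), a phenolic acid that gut bacteria make from polyphenols and amino acids, dissolved in the same saline. All 8 mice therefore shared the laparotomy, the cannula, the pump and single housing after surgery, and no mouse without surgery was sequenced. The mice bought for the study were male and female and 8 to 10 weeks of age, with free access to standard chow. Y-linked genes, read below, were expressed in all 8 livers, so the 8 sequenced mice were male. The time of day of tissue collection was not given in the sources used here.

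Cholesterol is built in the cytosol and the endoplasmic reticulum from acetyl-CoA, by way of mevalonate, the isoprenoids, squalene and lanosterol, and the liver is a main site of this synthesis. SREBP2 is a membrane-bound transcription factor. When sterols are low, its escort protein SCAP carries it to the Golgi, where it is cut free to enter the nucleus and switch on nearly every enzyme of the route. When sterols are plentiful, the proteins INSIG1 and INSIG2 hold the SCAP complex back, and because Insig1 is itself a target of SREBP2, its transcript is widely read as a gauge of the pathway.

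The libraries held 29559978 to 30673398 estimated counts each. Markers of hepatocytes were abundant in every liver, at a sum of 104159 to 133034 CPM over 8 genes (CPM, the share of a library's counts scaled by the trimmed mean of M values). The 8 markers of Kupffer cells summed to between 92.2 and 312 CPM, and 4-HPAA replicate 4 and normal saline replicates 4 and 1 were the lowest livers. The red cell markers summed to 2560 CPM in normal saline replicate 2 and 734 CPM in 4-HPAA replicate 4, against 152 to 376 CPM in the other 6. The 4 lymphocyte markers summed to at most 2.07 CPM and the 5 pancreas markers to at most 1.07 CPM. The 4 Y-linked genes on the list were expressed in all 8 livers, at a sum of 152 to 180 CPM, as in male mice. In whole tissue, fewer cells of a type and less RNA per cell cannot be told apart.

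Levels were first set side by side per transcript length, in TPM, which corrects a gene's share of the library for the length of its transcripts. The enzyme Sc5d, a sterol desaturase late in the route, was the highest at 206 ± 18.5 TPM (SD, n = 8), and Soat1, which esterifies cholesterol mostly outside hepatocytes, was the lowest at 1.09 ± 0.370 TPM (SD, n = 8), a 188-fold range. Next to Sc5d stood Fdps, the synthase of farnesyl diphosphate, at 193 ± 63.5 TPM and Ebp, a sterol isomerase, at 140 ± 7.73 TPM (SD, n = 8 each). Among the regulators, Insig1 was at 107 ± 15.3 TPM and Insig2 at 92.8 ± 28.6 TPM, while Scap was at 50.2 ± 6.43 TPM and Srebf2, the gene of SREBP2, at 17.5 ± 2.18 TPM (SD, n = 8 each). The lower end of the enzymes was held by Mvk (11.1 ± 1.95 TPM), Ggps1 (7.81 ± 0.574 TPM) and Mvd (5.17 ± 1.05 TPM; SD, n = 8 each), which encode mevalonate kinase, the geranylgeranyl diphosphate synthase and the decarboxylase that makes isopentenyl diphosphate.

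Put in order of level, 27 of the 30 pairs of neighbouring genes differed by less than the sum of their SDs. The 3 steps beyond that spread were from Mvk to Ggps1, from Ggps1 to Mvd, and from Mylip, at 4.80 TPM, to Soat1. The sum of SDs takes no account of both genes being measured in the same livers. Among the pairs within the spread, some kept their order in all 8 livers. These were Npc1 above Hmgcs1, Acat2 above Dhcr7, Soat2 above Hsd17b7, Hsd17b7 above Srebf2 and Lss above Mvk. Spread between livers also differed from gene to gene. The coefficient of variation over the 8 livers was 4.18% for Hsd17b7 and 5.97% for Ggps1, against 31.4% for Insig2, 32.1% for Fdft1 and 38.4% for Aacs, the acetoacetyl-CoA synthetase. Its median was 18.0% over the 19 enzymes, 13.9% over the other 12 genes and 12.2% over all genes tested.

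**Figure D1:**
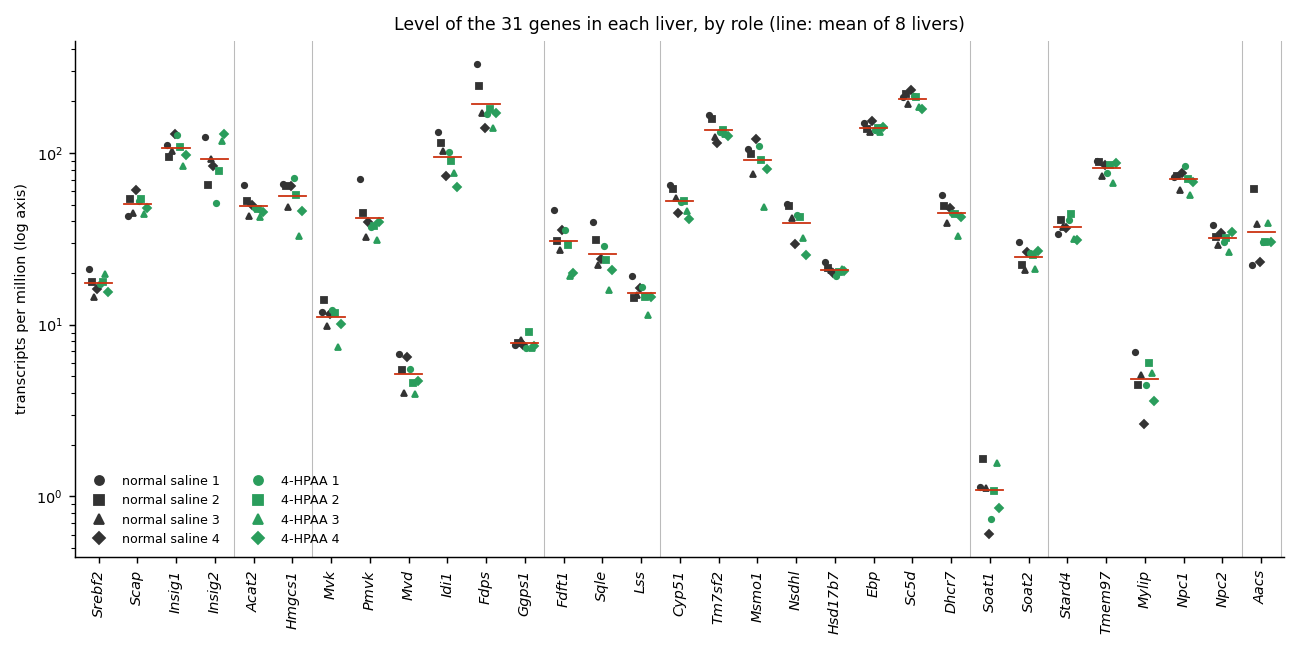
Level of each of the 31 genes in every liver in TPM (log axis), grouped by role between the vertical lines in the order regulators, acetyl-CoA to mevalonate, mevalonate to isoprenoids, squalene to lanosterol, lanosterol to cholesterol, esterification, transport and receptor control, and Aacs. Black symbols are normal saline, green symbols 4-HPAA, the shape gives the replicate number and the red line the mean of 8 livers, from 206 for Sc5d to 1.09 for Soat1.

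The promoters were read because many of these genes varied together, as described further on. RefSeq windows of GRCm38.p6, from 250 bases before to 50 bases after the gene's start, were at hand for 25 of the 31 genes, with Fdft1, Fdps, Npc1, Soat2, Sqle and Stard4 not among them. Both strands were searched for TCACNCCAC, a form of the sterol regulatory element that SREBP2 binds, for CCAAT, the site of the SREBP partner NF-Y, and for GGGCGG, a GC box bound by SP1. The sterol element was found in 1 of the 25 genes, Hmgcs1, and in 1.44% of all 27025 genes with a window. It started 137 bases before the start of Hmgcs1. CCAAT was found in 22 of the 25 (88.0%), against 41.1% of all genes and 43.1% of the tested genes with a window, and only Aacs, Acat2 and Scap among the 25 lacked it. The GC box was also in 22 of the 25, against 38.2% of all genes and 65.8% of the tested genes. These are matches of letters and not sites shown to be bound, and their share in the 25 genes was not set against genes matched for base composition. The 4 windows below are shown because they stand for the genes on which the covariation turned, Hmgcs1 (chr13:119690101-119690400, plus strand), Insig1 (chr5:28071162-28071461, plus strand), Msmo1 (chr8:64733529-64733828, minus strand) and Idi1 (chr13:8885356-8885655, plus strand). Capitals mark the sterol element and the CCAAT boxes, which read ATTGG on the other strand.
Hmgcs1: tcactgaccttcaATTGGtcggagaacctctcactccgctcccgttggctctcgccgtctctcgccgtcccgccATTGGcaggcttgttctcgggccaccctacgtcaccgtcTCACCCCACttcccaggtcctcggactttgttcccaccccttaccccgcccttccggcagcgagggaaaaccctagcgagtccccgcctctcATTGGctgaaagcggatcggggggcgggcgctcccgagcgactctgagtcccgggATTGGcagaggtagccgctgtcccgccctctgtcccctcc
Insig1: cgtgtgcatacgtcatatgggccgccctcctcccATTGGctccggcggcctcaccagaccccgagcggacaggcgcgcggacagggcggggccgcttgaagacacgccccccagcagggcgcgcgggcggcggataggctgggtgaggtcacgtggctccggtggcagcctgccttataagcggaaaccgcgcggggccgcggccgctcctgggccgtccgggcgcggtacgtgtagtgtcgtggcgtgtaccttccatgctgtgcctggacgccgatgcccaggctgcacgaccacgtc
Msmo1: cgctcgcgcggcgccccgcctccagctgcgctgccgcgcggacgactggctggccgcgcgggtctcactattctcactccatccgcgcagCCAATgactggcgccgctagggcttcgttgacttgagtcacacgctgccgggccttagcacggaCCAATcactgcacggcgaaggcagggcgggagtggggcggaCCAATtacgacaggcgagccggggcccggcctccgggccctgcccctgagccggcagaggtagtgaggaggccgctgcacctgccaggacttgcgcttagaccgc
Idi1: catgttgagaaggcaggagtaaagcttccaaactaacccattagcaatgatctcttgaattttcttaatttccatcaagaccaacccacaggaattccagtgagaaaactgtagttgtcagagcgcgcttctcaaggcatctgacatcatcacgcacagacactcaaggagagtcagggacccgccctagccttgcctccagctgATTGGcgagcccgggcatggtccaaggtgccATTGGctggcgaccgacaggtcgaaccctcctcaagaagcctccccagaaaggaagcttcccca
The window of Hmgcs1 holds 4 CCAAT boxes and the sterol element, that of Msmo1 holds 3 CCAAT boxes, that of Idi1 holds 2 and that of Insig1 holds 1.

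The first comparison asked whether the liver's sterol genes differed between 4-HPAA and normal saline. At an adjusted p of 0.05 in edgeR's quasi-likelihood test, 0 of the 31 passed and 0 of all 12883 genes (0.00%). Before adjustment, 0 of the 31 genes and 225 of all genes (1.75%) were under that threshold. DESeq2 called 2 genes of the whole table and limma-voom 0, and neither called any of the 31. Before adjustment, 1 of the 31, Fdft1, was under 0.05 in DESeq2 (unadjusted p = 0.0427, DESeq2), as were 1.68% of all genes. The same gene alone was under it in limma-voom (unadjusted p = 0.0493, limma-voom), against 1.63% of all genes. No gene of the 31 had its 2 groups of livers apart, which was so for 154 of all genes (1.20%). The log2 fold changes, always given as 4-HPAA minus normal saline, ran from -0.50 to 0.09, with a median of -0.17 against 0.00 over all genes. They were below 0 in 25 of the 31 genes, where 49.6% of all genes tested were below 0, and in 18 of the 19 enzymes, with a median of -0.22. Among the 12 genes that are not enzymes, 7 were below 0. Genes that vary together are not independent, so these counts are a description and no test was made on them.

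**Figure D2:**
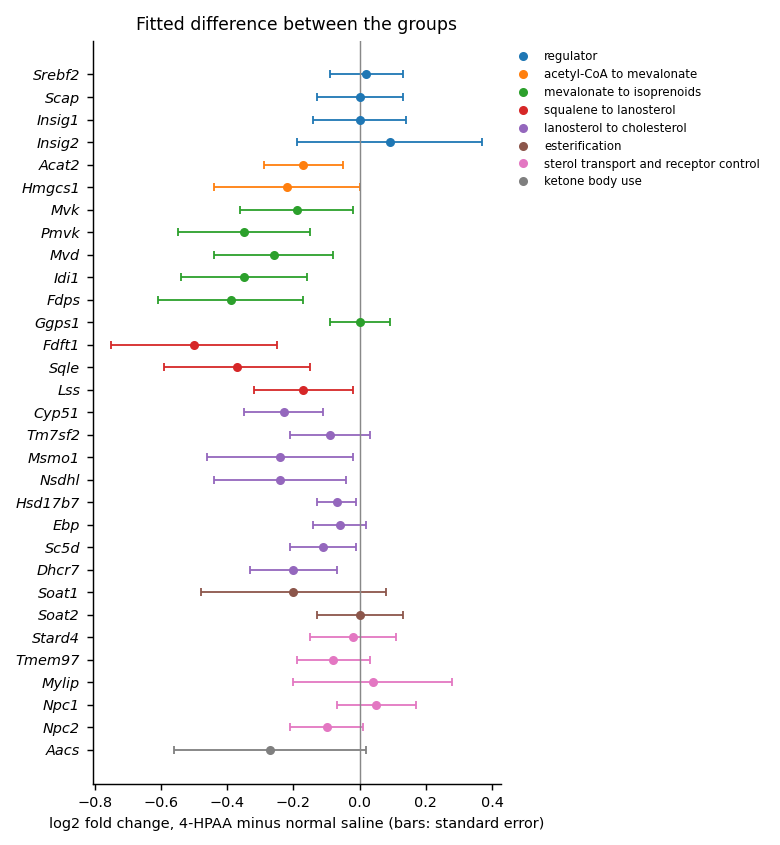
Log2 fold change of each of the 31 genes, 4-HPAA minus normal saline, from edgeR, with bars of 1 standard error and colours by role. Most enzymes lie left of 0, down to -0.50 for Fdft1, the regulators lie near 0, and no gene had an adjusted p under 0.05.

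The 4 regulators had log2 fold changes between -0.00 and 0.09. Srebf2 (chr15:82147181-82205379) was at 51.5, 43.2, 36.6 and 43.9 CPM in normal saline replicates 1 to 4 and at 47.5, 42.0, 46.9 and 41.2 CPM in 4-HPAA replicates 1 to 4. All 4-HPAA livers lay within the range of the saline livers, and the log2 fold change was 0.02 (standard error 0.11, adjusted p = 1.00, edgeR). Scap (chr9:110333288-110384950), the escort, was at 98.5, 131, 102 and 145 CPM with saline and at 128, 123, 103 and 121 CPM with 4-HPAA. Its log2 fold change was -0.00 (standard error 0.13), again with every 4-HPAA liver inside the saline range.

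Insig1 (chr5:28071363-28078662) was at 158, 148, 144 and 196 CPM with saline and at 197, 161, 127 and 160 CPM with 4-HPAA. The groups overlapped, with saline replicate 4 and 4-HPAA replicate 1 level at the top and 4-HPAA replicate 3 lowest (log2 fold change -0.00, standard error 0.14). Insig2 (chr1:121304353-121332589), the isoform that sterol-driven SREBP2 controls less in liver, was at 138, 76.4, 97.6 and 95.0 CPM with saline and at 62.3, 82.9, 133 and 154 CPM with 4-HPAA. It ranged 2.47-fold over the livers against 1.55-fold for Insig1, and the lowest and the highest liver were both in the 4-HPAA group. Its log2 fold change of 0.09 (standard error 0.28) was smaller than its error, and it turned to -0.14 without 4-HPAA replicate 4.

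At the entry of the route, Acat2 (chr17:12942890-12960747), which joins acetyl-CoA units, was at 83.6, 70.9, 56.5 and 66.5 CPM with saline and at 67.7, 61.0, 54.9 and 63.2 CPM with 4-HPAA. The groups overlapped, and the log2 fold change was -0.17 (standard error 0.12, adjusted p = 1.00, edgeR). In the annotation, 50.5% of the 31-base words of its main transcript also occur in Acat3, so kallisto could divide reads between these genes. Hmgcs1, the cytosolic synthase whose promoter is shown above, averaged 119 ± 16.6 CPM with saline and 102 ± 35.8 CPM with 4-HPAA (SD, n = 4 each). Its livers spanned 62.5 CPM in 4-HPAA replicate 3 to 149 CPM in 4-HPAA replicate 1, so the group that received the metabolite held both extremes. The log2 fold change of -0.22 (standard error 0.22) was -0.04 without 4-HPAA replicate 3.

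Between mevalonate and the isoprenoids, 5 of 6 genes had log2 fold changes below 0, with a median of -0.30. Pmvk (chr3:89454541-89469013), a kinase of mevalonate phosphate, was at 49.4, 33.4, 23.3 and 29.4 CPM with saline and at 28.0, 26.3, 22.0 and 29.7 CPM with 4-HPAA. Saline replicate 1 stood above all other livers, and the log2 fold change of -0.35 (standard error 0.20) was -0.11 without it. Idi1 (chr13:8885501-8892451), the isomerase of isopentenyl diphosphate, was at 235, 216, 187 and 137 CPM with saline and at 194, 160, 137 and 119 CPM with 4-HPAA. The lowest saline liver, replicate 4, was level with 4-HPAA replicate 3, so the groups overlapped (log2 fold change -0.35, standard error 0.19, adjusted p = 1.00, edgeR).

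Fdps (chr3:89093588-89101959), where the path to sterols meets that to protein prenylation, was at 244, 193, 132 and 110 CPM with saline and at 138, 136, 107 and 135 CPM with 4-HPAA. Saline replicates 1 and 2 stood above the other 6 livers, and the log2 fold change of -0.39 (standard error 0.22) was -0.17 without saline replicate 1. Of the 31-base words of its main transcript, 85.7% also occur in other genes, mostly in the overlapping Gm43738, which itself held a mean of 10.1 counts. Mvk lay between 9.22 and 13.0 CPM with saline and between 6.86 and 11.7 CPM with 4-HPAA (log2 fold change -0.19, standard error 0.17). Mvd averaged 6.09 ± 1.29 CPM with saline and 5.09 ± 0.875 CPM with 4-HPAA (SD, n = 4 each). Ggps1, on the branch towards geranylgeranyl groups and away from sterols, had the smallest difference of the enzymes, 10.7 ± 0.715 against 10.8 ± 0.672 CPM (SD, n = 4 each), with a log2 fold change of 0.00 (standard error 0.09).

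The 3 enzymes from squalene to lanosterol had the lowest median of the steps, -0.37. Fdft1 (chr14:63145150-63179578), squalene synthase and the first enzyme committed to sterols, was at 72.0, 52.8, 42.3 and 59.2 CPM with saline and at 60.5, 40.8, 26.3 and 32.2 CPM with 4-HPAA. The 3 lowest livers all received 4-HPAA, but 4-HPAA replicate 1 was the second highest of the 8. The log2 fold change was -0.50 (standard error 0.25, unadjusted p = 0.0690, adjusted p = 1.00, edgeR), the smallest unadjusted p of the 31 genes and 335th among all genes. Leaving out 4-HPAA replicate 1 gave -0.77, and leaving out 4-HPAA replicate 3 gave -0.35. The gene overlaps Ctsb, which held a mean of 13157 counts on the opposite strand. The library kit keeps strand, but the pseudo-alignment ran with standard parameters, which do not use it. Reads from the overlap could therefore not be told apart by strand. The same limit holds for Mvd, Ggps1, Cyp51 and Npc1. They overlap Gm20388 (mean 482 counts), Arid4b (718), Akap9 (1774) and Rmc1 (518) on the opposite strand.

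Sqle (chr15:59315077-59331192), squalene epoxidase and a rate-limiting enzyme of the route, was at 64.7, 54.3, 37.7 and 41.8 CPM with saline and at 51.4, 39.5, 26.4 and 36.2 CPM with 4-HPAA. Saline replicates 1 and 2 and 4-HPAA replicate 1 were the 3 highest, and the log2 fold change was -0.37 (standard error 0.22, adjusted p = 1.00, edgeR). Lss, which closes the sterol ring system, averaged 46.8 ± 5.63 CPM with saline and 41.5 ± 8.87 CPM with 4-HPAA (SD, n = 4 each).

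From lanosterol to cholesterol, all 8 enzymes had log2 fold changes below 0, from -0.24 to -0.06. Cyp51 (chr5:4081145-4104746), the demethylase of lanosterol, was at 149, 152, 130 and 109 CPM with saline and at 130, 122, 106 and 103 CPM with 4-HPAA. Saline replicate 4 lay among the 4-HPAA livers, and the log2 fold change was -0.23 (standard error 0.12, unadjusted p = 0.0889, adjusted p = 1.00, edgeR). Dhcr7 (chr7:143823145-143848410), the reductase that turns dehydrocholesterol into cholesterol, was at 74.0, 68.7, 53.5 and 68.2 CPM with saline and at 64.0, 56.4, 44.8 and 64.3 CPM with 4-HPAA. Saline replicate 3 was below 3 of the 4 livers that received 4-HPAA (log2 fold change -0.20, standard error 0.13).

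The other 6 enzymes of this stretch differed by less than the spread between livers. Msmo1, a methylsterol oxidase, ran from 85.7 to 135 CPM with saline and from 57.1 to 131 CPM with 4-HPAA. Nsdhl, a dehydrogenase that acts with it in removing methyl groups, averaged 56.5 ± 12.4 and 47.7 ± 11.8 CPM (SD, n = 4 each). Each had a log2 fold change of -0.24, with a standard error of 0.22 for Msmo1 and 0.20 for Nsdhl. Sc5d averaged 334 ± 33.9 and 309 ± 33.5 CPM, and the sterol reductase Tm7sf2 123 ± 21.4 and 116 ± 5.24 CPM (SD, n = 4 each). The smallest differences of the stretch were those of Hsd17b7, a sterol ketone reductase (-0.07, standard error 0.06), and of Ebp (-0.06, standard error 0.08).

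**Figure D3:**
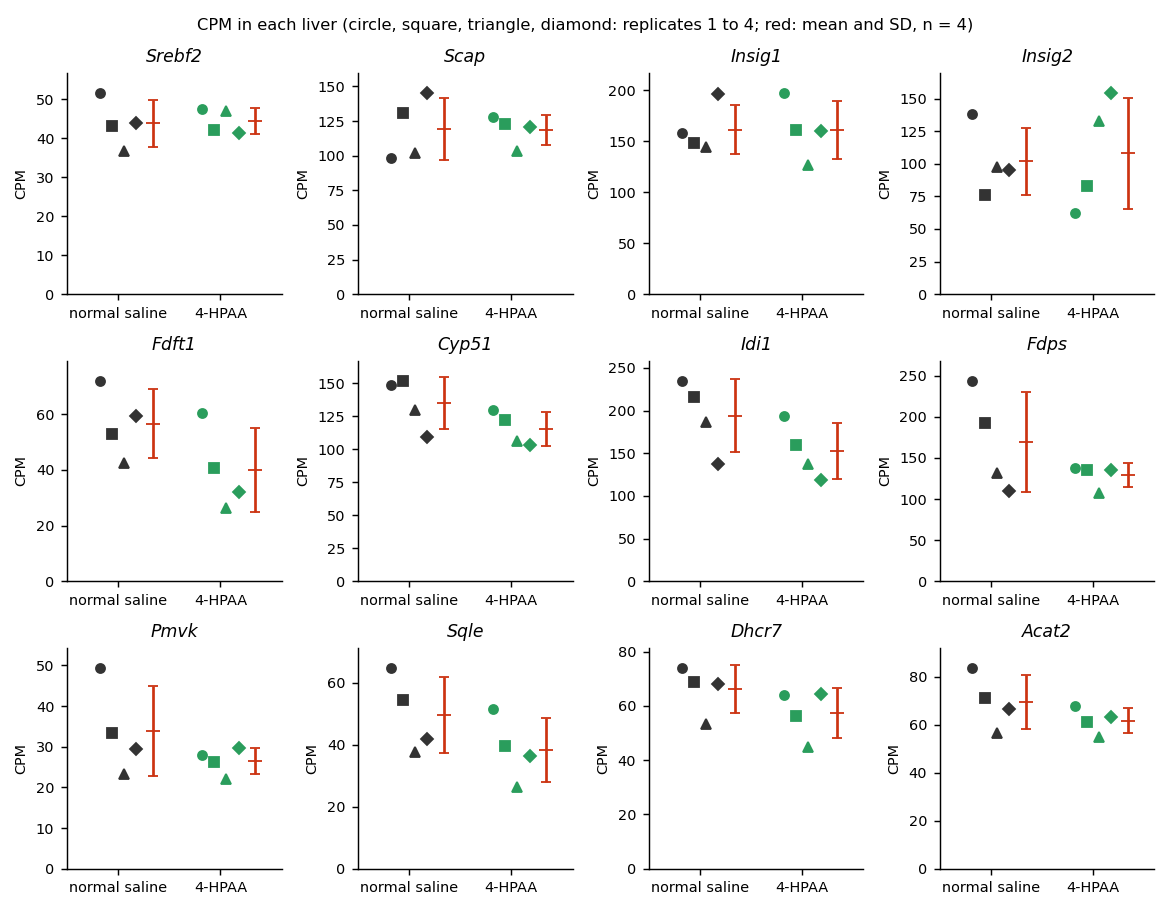
CPM of the 4 regulators and of the 8 other genes with the smallest unadjusted p in each liver, with normal saline in black, 4-HPAA in green, the shape for the replicate number, and the mean and SD of 4 livers in red. The groups overlap in all 12 panels, and in Fdft1 they run from 42.3 to 72.0 with saline and from 26.3 to 60.5 with 4-HPAA.

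Genes of sterol transport and receptor control had a median log2 fold change of -0.02. Stard4, a cytosolic sterol carrier and SREBP2 target, lay between 97.2 and 128 CPM with saline and between 90.9 and 129 CPM with 4-HPAA (log2 fold change -0.02, standard error 0.13). Tmem97, a sterol-responsive membrane protein that binds NPC1, had a log2 fold change of -0.08 (standard error 0.11). For the lysosomal cholesterol exporters the log2 fold change was 0.05 in Npc1 (standard error 0.12) and -0.10 in Npc2 (standard error 0.11). Mylip, a ligase that marks lipoprotein receptors for breakdown under the control of LXR rather than SREBP2, averaged 8.79 ± 2.98 and 9.03 ± 1.68 CPM (SD, n = 4 each), a log2 fold change of 0.04 (standard error 0.24).

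For cholesterol esterification, Soat2, the enzyme of hepatocytes, averaged 33.6 ± 5.09 and 33.7 ± 4.28 CPM (SD, n = 4 each), with a log2 fold change of 0.00 (standard error 0.13). Soat1, which macrophages use, was at 3.37, 5.52, 5.15 and 2.20 CPM with saline and at 3.63, 4.50, 3.27 and 2.76 CPM with 4-HPAA (log2 fold change -0.20, standard error 0.28). The sum of the 8 Kupffer cell markers in the same livers was 119, 312, 209 and 99.0 CPM with saline and 194, 266, 145 and 92.2 CPM with 4-HPAA. In CPM, the 3 livers with the highest Soat1, saline replicates 2 and 3 and 4-HPAA replicate 2, were also the 3 with the highest sum of these markers. Per transcript length the order was another, with saline replicate 2 (1.66 TPM), 4-HPAA replicate 3 (1.56) and saline replicate 1 (1.13) the highest in Soat1. The part of the markers in the level of Soat1 was not tested. None of the 8 Kupffer markers was at 0 in every liver. Aacs, which feeds ketone bodies into sterol synthesis, was at 38.7, 112, 72.8 and 41.6 CPM with saline and at 51.3, 54.0, 61.3 and 53.6 CPM with 4-HPAA. Saline held both its lowest livers and its highest, and the log2 fold change of -0.27 (standard error 0.29) turned to 0.11 without saline replicate 2.

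The size of the differences between the groups depended on single livers. Of the 31 genes, 19 were lowest in 4-HPAA replicate 3, among them 13 of the 19 enzymes, and 13 were highest in saline replicate 1, among them 9 enzymes. The enzymes' median deviation from the mean of all livers, in log2 CPM, was 0.28, 0.19, -0.13 and 0.03 in saline replicates 1 to 4 and 0.15, -0.06, -0.39 and -0.11 in 4-HPAA replicates 1 to 4. Thus 18 enzymes were above their mean in saline replicate 1 and 15 in 4-HPAA replicate 1, while 15 were below it in saline replicate 3 and all 19 in 4-HPAA replicate 3. The same median over all genes tested stayed between -0.01 and 0.02 in each of the 8 livers. The median log2 fold change of the enzymes was -0.10 without 4-HPAA replicate 3, and that of the 31 genes was -0.07 without that liver, -0.09 without saline replicate 1 and -0.10 without saline replicate 2. In the other direction, the enzymes' median was -0.31 without 4-HPAA replicate 1 and -0.27 without saline replicate 3, and that of the 31 genes -0.20 without 4-HPAA replicate 1. With each liver left out, 18 or 19 of the 19 enzymes were below 0. Among single enzymes, leaving out 4-HPAA replicate 3 gave log2 fold changes of -0.07 for Msmo1, -0.10 for Dhcr7 and -0.23 for Sqle. Leaving out saline replicate 1 gave -0.07 for Acat2 and -0.22 for Sqle. At the other end, with 1 liver left out, they reached -0.44 for Msmo1, -0.29 for Dhcr7, -0.26 for Acat2 and -0.54 for Sqle. Leaving out 4-HPAA replicate 1 gave 6 of the 31 genes an unadjusted p under 0.05 (Cyp51, Fdft1, Hmgcs1, Idi1, Lss and Sqle), against 2.63% of all genes tested. Without saline replicate 3 there were 5 (Acat2, Dhcr7, Fdft1, Mvd and Pmvk), against 2.01%, and without saline replicate 4 there were 3 (Cyp51, Fdps and Idi1), against 2.02%. With each liver left out in turn, 0 of the 31 genes passed after adjustment (edgeR).

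Transcripts were then tested singly. The table lists 178 transcripts of the 31 genes, of which 65 held at least 10 counts in every liver, and 13 genes had a single such transcript. An adjusted p under 0.05 was found for 0 of the 65 and for 0 of all 25533 transcripts tested (0.00%, edgeR), while DESeq2 called 21 of all. One transcript of the 65, Acat2-204, had an unadjusted p under 0.05 (0.00759, adjusted p = 1.00, edgeR), against 979 of all transcripts (3.83%). It held 313, 263, 238 and 350 counts with saline and 150, 213, 211 and 108 counts with 4-HPAA, a log2 fold change of -0.75 (standard error 0.22). It made up between 5.98% and 18.1% of the gene's counts, and the main transcript, Acat2-201, had a log2 fold change of -0.08 (standard error 0.14). Acat2-204 was named after its values were seen. For Insig2, the most abundant transcript had a log2 fold change of 0.10 (standard error 0.27) and the next one 0.18 (standard error 0.41). The retained-intron transcripts of Msmo1, Lss, Ebp and Insig1 were also read at levels of 10 counts or more, and none had an unadjusted p under 0.05.

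The second question was how the genes varied together across the 8 livers, whatever the infusion. Each liver gives 1 point, and all values of a liver share its library and its group. Over the 465 pairs of the 31 genes, the median Pearson's r of log2 CPM was 0.42, and 45.2% of the pairs reached 0.5, against a median of 0.00 and 14.0% over all pairs of genes tested. Over the 171 pairs of enzymes the median was 0.63, and 67.8% reached 0.5. The closest pairs were Hmgcs1 with Msmo1 and Idi1 with Cyp51 (r = 0.98 each), followed by Acat2 with Pmvk (r = 0.97). Next came Fdft1 with Lss, and Nsdhl with both Idi1 and Cyp51 (r = 0.96 each). Sqle had the highest median r with the other 30 genes, 0.69. The lowest median r were those of Insig2, which went against most of the others (-0.33), of Aacs (-0.11), and of Mylip and Soat1 (0.03 each). These are descriptions over 8 livers and carry no p.

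**Figure D4:**
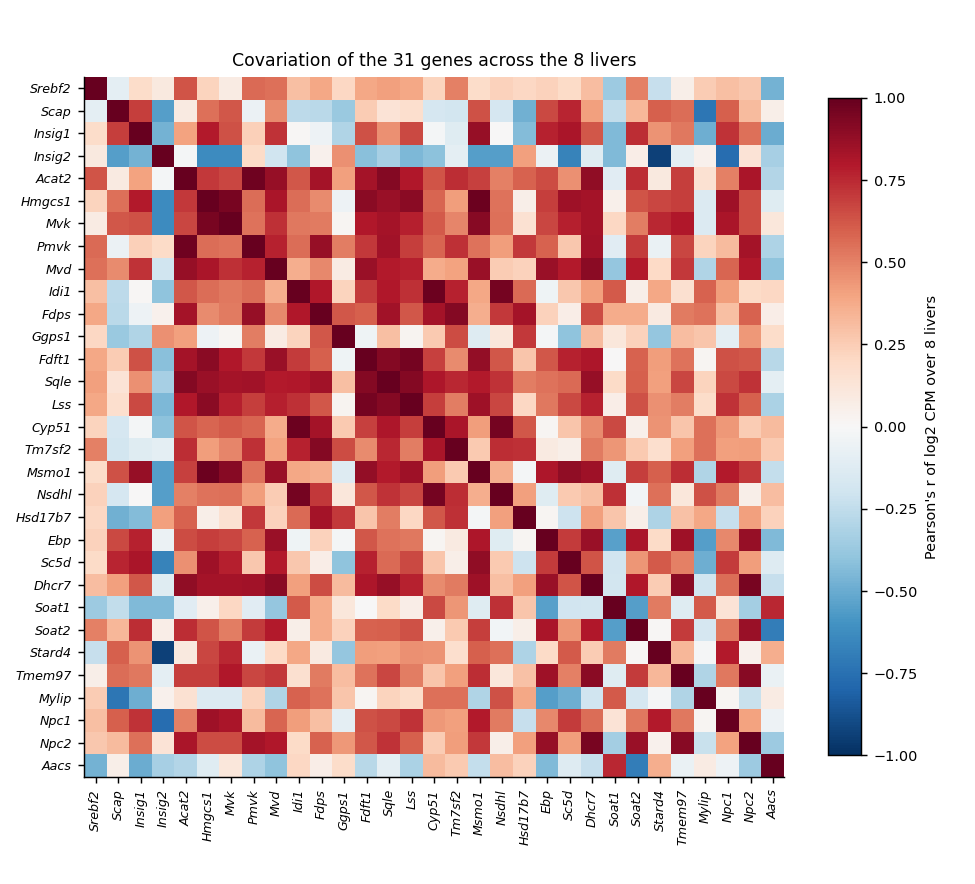
Pearson's r of log2 CPM over the 8 livers for each pair of the 31 genes, ordered by role, from -1 (blue) to 1 (red). The enzymes form a red block with a median r of 0.63, while the row of Insig2 is mostly blue, down to -0.93 with Stard4.

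Within the enzymes, genes followed Insig1 to unequal degrees. In 9 enzymes (Hmgcs1, Mvk, Mvd, Fdft1, Lss, Msmo1, Ebp, Sc5d and Dhcr7) r with Insig1 was at least 0.6, and in 5 others (Idi1, Fdps, Cyp51, Tm7sf2 and Nsdhl) it was within 0.15 of 0. Both sets were drawn after these values were seen, so what follows describes them. The median r was 0.82 within each set and 0.47 between them. The sets parted in saline replicate 4, where all 9 enzymes of the first lay above their mean over the livers (median deviation 0.24 in log2 CPM) and all 5 of the second lay below theirs (median deviation -0.30). In 4-HPAA replicate 3 every enzyme of both sets was below its mean, at medians of -0.44 and -0.29. Msmo1 shows the first pattern, with 112, 113, 85.7 and 135 CPM in saline replicates 1 to 4 and 131, 98.6, 57.1 and 89.6 CPM in 4-HPAA replicates 1 to 4. Idi1 shows the second, since it had 235 CPM in saline replicate 1 but 137 CPM in saline replicate 4. Both promoters, printed above, hold CCAAT boxes, and neither holds the sterol element searched for.

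Correlation with Insig1 was tested across all other 12882 genes by exact permutation of the 8 livers, for Pearson's r and Spearman's rho. Of these, 0 (0.00%) had an adjusted p under 0.05 by either measure (at least 7 genes would have to share the smallest p for a call on r, and 13 on rho), and 806 (6.26%) had an unadjusted permutation p under 0.05 for r. Among the 30 other sterol genes, 7 had such a p (Msmo1, Sc5d, Hmgcs1, Ebp, Soat2, Npc1 and Mvd), all with r above 0. For rho, 2 of the 30 had one, near the 4.78% of all genes. Msmo1 came first, with r = 0.87 (exact permutation p = 0.00288, adjusted p = 0.707) and rho = 0.76 (exact permutation p = 0.0368, adjusted p = 0.874). Its r was 0.72 with 4-HPAA replicates 3 and 1 left out, the livers farthest from the median of Insig1. Sc5d followed with r = 0.82 (exact permutation p = 0.0128, adjusted p = 0.739) and rho = 0.69 (exact permutation p = 0.0694, adjusted p = 0.874), and r = 0.69 without those livers. For Hmgcs1, r was 0.79 (exact permutation p = 0.0186, adjusted p = 0.739) and rho 0.62 (exact permutation p = 0.115, adjusted p = 0.874), with r = 0.40 without them. For Npc1, r was 0.72 (exact permutation p = 0.0422, adjusted p = 0.776) and rho 0.79 (exact permutation p = 0.0279, adjusted p = 0.874), with r = 0.22 without them. The relations of Hmgcs1 and Npc1 with Insig1 were thus weaker without these 2 livers, where the range of Insig1 is also narrower. Saline replicate 4 was level with 4-HPAA replicate 1 in Insig1 (196 and 197 CPM). Leaving it out in place of that liver was not tried. With the group means removed, r with Insig1 was 0.93 for Msmo1, 0.89 for Sc5d, 0.84 for Hmgcs1 and 0.73 for Npc1. The mean of Insig1 was nearly the same in both groups (162 and 161 CPM), so this step could hardly lower r. With the means of the replicate numbers removed, r was 0.77 for Msmo1, 0.78 for Sc5d, 0.72 for Hmgcs1 and 0.89 for Npc1. It was then 0.18 for Mvd, 0.32 for Ebp and -0.33 for Soat2.

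The transcript of SREBP2 itself gave a weaker pattern. Over the same 12882 genes, 0 (0.00%) had an adjusted p under 0.05 with Srebf2, and 467 (3.63%) had an unadjusted permutation p under 0.05 for r, with 0 of the 30 sterol genes among them. Their median r with Srebf2 was 0.23, and 26 of the 30 were above 0. The highest, Acat2, had r = 0.63 (exact permutation p = 0.0947, adjusted p = 0.997) and rho = 0.52 (exact permutation p = 0.197, adjusted p = 0.998), and r was -0.16 without saline replicates 3 and 1, so that it rested on those livers.

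Insig2 was taken as a further reference after the values had been seen, since it went against most of the sterol genes. Again 0 of 12882 genes (0.00%) had an adjusted p under 0.05, but 1403 (10.9%) had an unadjusted permutation p under 0.05 for r. Of the 30 sterol genes, 8 had r above 0 with Insig2 and the rest below, and 2 had an unadjusted permutation p under 0.05. Stard4 had r = -0.93 (exact permutation p = 0.00270, adjusted p = 0.288) and rho = -0.83 (exact permutation p = 0.0154, adjusted p = 0.412), and r = -0.97 without 4-HPAA replicates 4 and 1. Npc1 had r = -0.76 (exact permutation p = 0.0272, adjusted p = 0.407) and rho = -0.79 (exact permutation p = 0.0279, adjusted p = 0.478), and r = -0.64 without those livers. The livers were ordered largely in reverse, but the outermost livers were not the same. Stard4 ran from 129 CPM in 4-HPAA replicate 2 to 90.9 CPM in 4-HPAA replicate 3. Insig2 was lowest in 4-HPAA replicate 1 (62.3 CPM) and highest in 4-HPAA replicate 4 (154 CPM).

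Genes of the circadian clock were read beside Insig2. Cry1, a clock repressor, had r = 0.96 with Insig2 (exact permutation p = 4.71e-04, adjusted p = 0.259) and rho = 0.93 (exact permutation p = 0.00223, adjusted p = 0.323). Nr1d1, which encodes the repressor REV-ERBα, had r = -0.95 (exact permutation p = 5.21e-04, adjusted p = 0.259) and rho = -0.90 (exact permutation p = 0.00456, adjusted p = 0.344). Nr1d1 was at 13.1, 21.3, 16.9 and 19.3 CPM with saline and at 31.4, 23.8, 13.9 and 14.1 CPM with 4-HPAA, so it was highest in the liver where Insig2 was lowest. Without 4-HPAA replicates 4 and 1, r was 0.99 for Cry1 and -0.95 for Nr1d1. Of the 15 clock genes tested, 8 had an unadjusted permutation p under 0.05 with Insig2, against the 10.9% of all genes. Besides these 2 they were Nfil3 (r = 0.92), Arntl (0.89) and Clock (0.76) on the side of Cry1, and Tef (-0.90), Dbp (-0.81) and Per3 (-0.72) on that of Nr1d1. For the other 7, r was weaker: Nr1d2 (r = -0.68), Bhlhe41 (-0.62), Per1 (-0.55), Per2 (-0.44), Cry2 (-0.23), Ciart (-0.21) and Hlf (0.26). Genes outside the clock came as close to Insig2, among them the sterol and bile salt exporters Abcg8 (r = -0.93) and Abcb11 (r = -0.91). Nus1 of dolichol synthesis (r = 0.89) and Sox9, a cholangiocyte marker (r = 0.88), did so too. The other cholangiocyte markers tested did not, with r = 0.21 for Epcam and 0.14 for Krt7. The 8 Kupffer markers all had r below 0 with Insig2, from -0.76 to -0.30, as had the 5 endothelial markers, from -0.55 to -0.06. These genes were singled out after their values were seen. Between the infusions, 0 of the 15 clock genes had an unadjusted p under 0.05 (edgeR). The part of these genes in the level of Insig2 was not tested.

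**Figure D5:**
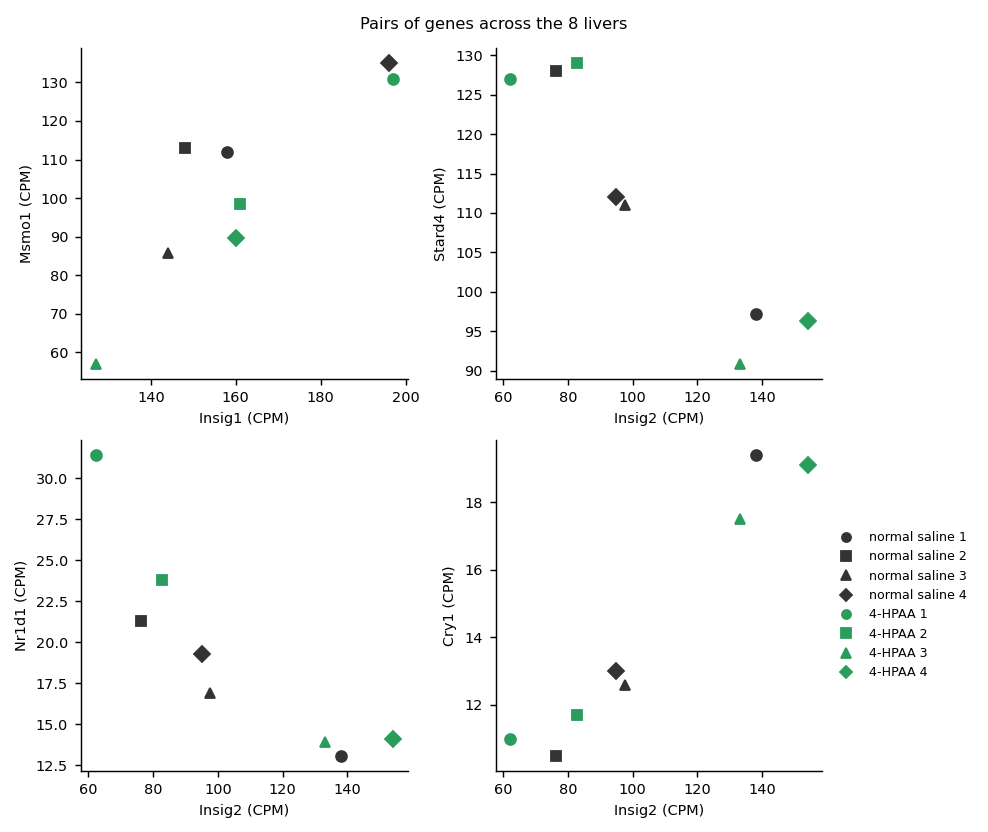
CPM of 4 pairs of genes in the 8 livers, with normal saline in black, 4-HPAA in green and the shape for the replicate number. Msmo1 follows Insig1 (r = 0.87), Stard4 and Nr1d1 run against Insig2 (r = -0.93 and -0.95), and Cry1 follows Insig2 (r = 0.96), with both groups spread along each relation.

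The genes outside the list most like it were found by their r with the mean z score of the 31 genes, which was 0.80, 0.63, -0.45 and 0.04 in saline replicates 1 to 4 and 0.40, -0.11, -1.07 and -0.24 in 4-HPAA replicates 1 to 4. Of 12852 genes, 19 had r of at least 0.9 and 17 had r of -0.9 or less. The first 10 of the 19 were Pcna (r = 0.97), Slc10a2, Per1, Ppp1ccb, Hspbap1, Pdzk1, Zbtb17, Gramd1a, Hnrnpa1 and Srrm4 (r = 0.92). Slc10a2, a bile acid transporter, was at 53.7, 50.1, 37.4 and 40.5 CPM with saline and at 51.3, 33.9, 25.3 and 34.2 CPM with 4-HPAA. Per1, a clock gene, was at 63.3, 63.8, 51.2 and 52.5 CPM with saline and at 63.1, 50.8, 40.4 and 46.4 CPM with 4-HPAA. In all 10 the lowest liver was 4-HPAA replicate 3, which follows from their choice, since the mean z score was also lowest there. The transcript of Ppp1ccb shares all its 31-base words with other genes, chiefly Ppp1cc, and those of Hnrnpa1 and Pcna share 54.7% and 38.0% of theirs, so reads of these 3 could be divided with copies. These r are descriptions over 8 livers, with no p.

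Lists of neighbouring pathways were read in the same fit. Of 9 genes of SREBP processing and sterol-regulated degradation, 3 had log2 fold changes below 0, with a median of 0.02 and a smallest unadjusted p of 0.384 (Erlin2, 0.08, standard error 0.09, adjusted p = 1.00, edgeR). Of 13 genes tested from the SREBP1 and fatty acid list, 6 were below 0, and Elovl6, a fatty acid elongase, had the smallest unadjusted p (log2 fold change 0.25, standard error 0.28, adjusted p = 1.00, edgeR). The 14 genes of that list summed to 7346 CPM in saline replicate 3 and 7754 CPM in 4-HPAA replicate 3, the lowest of the livers, and to 12783 CPM in saline replicate 1. Most of these sums was Scd1, a fatty acid desaturase, at 4504, 4383 and 8128 CPM in these 3 livers. In the 13 genes that use isoprenoids, the median was 0.01.

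Cholesterol export and bile acid synthesis had 11 of 18 genes below 0, with a median of -0.02. Cyp7a1, the rate-limiting enzyme of bile acid synthesis, was at 296, 423, 279 and 277 CPM with saline and at 202, 298, 225 and 118 CPM with 4-HPAA. Only 4-HPAA replicate 2 reached into the saline range, and the log2 fold change was -0.60 (standard error 0.25, unadjusted p = 0.0383, adjusted p = 1.00, edgeR). Without saline replicate 2 it was -0.44 (unadjusted p = 0.108, edgeR), and without 4-HPAA replicate 4 it was -0.41 (unadjusted p = 0.0521, edgeR). In the other direction, it was -0.81 without 4-HPAA replicate 2 (unadjusted p = 0.00734, edgeR). With any other liver left out it lay between -0.66 and -0.58. Cyp7a1 was the 1 gene of these 4 lists, with 9, 13, 18 and 13 genes tested, with an unadjusted p under 0.05. Such a p was found in 1.75% of all genes, a share near that of the 4 lists.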

How the data were processed

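RNA from 8 livers was made into strand-keeping poly(A) libraries and sequenced on an Illumina NovaSeq. Per the labels and methods, reads were checked with FastQC 0.11.9 and pseudo-aligned with kallisto to transcripts of GRCm38.p6, run with standard parameters in Galaxy, and the authors deposited estimated counts per transcript and mouse, without normalization or pooling. The methods name NCBI annotation, whereas transcripts carry Ensembl identifiers. Of 119414 transcripts, 116728 matched GENCODE M21 and were summed over 35975 genes. The 2686 others (0.703% to 1.06% of a library's counts) were left out of library sizes and tests. Sums were rounded to whole counts. A gene was tested where each library held 10 counts or more of it. The fit used edgeR 4.0.16 in R 4.3.3 (TMM, quasi-likelihood F test, group only), with Benjamini-Hochberg adjustment over all genes at 0.05. DESeq2 1.42.0 and limma-voom (limma 3.58.1), other normalizations and filters, each liver left out and the replicate number as a block were alternatives, and the scripts were tested on simulated data.

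CPM used TMM-scaled library sizes, and TPM the annotated transcript lengths without effective-length correction. Correlations used log2 CPM with a prior count of 2 and exact permutation over all 40320 pairings of the livers (two-sided, smallest possible p 2.48e-05), adjusted over 12882 genes for each reference gene. The members and lists were chosen with earlier results of these data known, and 1 gene of the list of SREBP processing and degradation is not reported here. Values in every liver are given for the 4 regulators, the 8 other members with the smallest p, Cyp7a1, Slc10a2 and Per1. From each other list the gene with the smallest p is named with its log2 fold change. The 10 genes most like the members are named. Values in every liver of Msmo1, Soat1, Aacs and Nr1d1 are given outside this rule. Genes outside this rule are named as chosen after their values were seen, as were Insig2 as a reference, the clock genes set beside it and the comparison of Soat1 with Kupffer markers. The labels give replicates no culture, litter or day, so p-values measure the spread between these mice. Counting error, taken as Poisson, came to less than 50% of the coefficient of variation over the 8 livers in 29 of the 31 genes, but to 93.6% of it in Ggps1 and 57.9% in Hsd17b7.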

Additional observations from a re-analysis of the deposited data

Results flagged for a closer look

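In each group of 4 livers, the gap between the outermost liver and its neighbour was divided by the group's range. In 8 of 108 groups this share was above Dixon's 95% critical value, where chance gives 5.40 (about 1 in 20). The groups are not independent, since one liver enters many genes.

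Of the 31 sterol genes, 2 had such a liver. Hmgcs1 was at 94.5 CPM in normal saline replicate 3, against 124 to 130 CPM in the other saline livers (gap 0.841 of the range). Fdps was at 107 CPM in 4-HPAA replicate 3, against 135 to 138 CPM in the others (0.906).

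Outside the list, normal saline replicate 2 stood highest in 3 genes of its group. Cyp7a1 was at 423 CPM against 277 to 296 CPM (0.866), Marco, a macrophage receptor, at 27.8 CPM against 2.82 to 6.66 CPM (0.846), and Hbb-bt, a globin, at 264 CPM against at most 28.1 CPM (0.948). Without that liver the log2 fold change was -0.44 (standard error 0.24, unadjusted p = 0.108, edgeR) for Cyp7a1 and -0.11 (standard error 0.75) for Hbb-bt. In 4-HPAA, Hbb-bt was at 54.6 CPM in replicate 4 against 6.17 to 8.03 CPM (0.962). Without that liver its log2 fold change was -3.55 (standard error 1.08). Gramd1a, a sterol transporter among the genes most like the sterol genes, was lowest in normal saline replicate 3, at 11.6 CPM against 13.7 to 13.8 CPM (0.943). Cela2a, a pancreatic elastase, was highest in normal saline replicate 4, at 0.927 CPM against 0.515 to 0.577 CPM (0.849).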

How the results depend on the processing

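For calls between the infusions, 0 of the 31 genes passed under every alternative run. DESeq2 called 2 genes and 21 transcripts of the whole table, and leaving out each liver gave 0 to 1 of either. The median pairwise r of the 31 genes lay between 0.32 and 0.52 with each liver left out, lowest without 4-HPAA replicate 3 and highest without normal saline replicate 4. The log2 fold changes near 0 changed sign. Scap was 0.01 with limma-voom, 0.0005 with a filter of 10 summed counts and 0.0004 with no filter, Insig1 was 0.001 with either of those filters, and with total counts only Ggps1 and Soat2 were -0.01. With each liver left out the ranges were -0.06 to 0.11 for Srebf2, -0.09 to 0.10 for Scap, -0.11 to 0.10 for Insig1, -0.14 to 0.28 for Insig2, -0.04 to 0.03 for Ggps1, -0.10 to 0.07 for Stard4, -0.15 to 0.24 for Mylip, -0.07 to 0.09 for Soat2, -0.05 to 0.13 for Npc1 and -0.45 to 0.11 for Aacs. The cause of these turns was not tested. The other 21 genes had the same direction under every alternative run.

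For same-numbered livers of the 2 groups, the correlations of their deviations were 0.0398, 0.168, 0.268 and 0.480, all above 0. The last, of the replicates 4, was the highest of any such pair. Between livers of different numbers they ran from -0.477 to 0.466, and most were below 0. Both ends were of normal saline replicate 3, with 4-HPAA replicates 4 and 2. Whether the numbers mark a pairing was not settled by these values. The replicate block called 0 genes, 0 transcripts and 0 of the 31 genes (edgeR). It gave 6 of the 31 an unadjusted p under 0.05, against 2.61% of all genes. These were Cyp51, Dhcr7, Fdft1, Idi1, Nsdhl and Sqle, with the smallest in Fdft1 (unadjusted p = 0.00140, edgeR). The block put Scap at 0.01. With the replicate means removed the median pairwise r was 0.31. The permutation test of correlations was not run with the replicate block, since too few arrangements are left. In the 3 correlation families no gene was called with other normalizations or with rho. With 7 livers, 6 livers or the group means removed, at least 52, 358 or 448 genes would have to share the smallest p for a call, so the 0 calls there say nothing about stability. The enzymes' differences were not detectable beyond the spread between these livers.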

Other observations

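Markers of other liver cells and of stray tissue were tested in the same fit, and none had an unadjusted p under 0.05 between the infusions (edgeR). Of the 8 Kupffer markers, 6 had log2 fold changes below 0, and Marco had the smallest p (-1.10, standard error 0.72, unadjusted p = 0.157, adjusted p = 1.00, edgeR). All 5 endothelial markers were above 0, with Pecam1 first (0.07, standard error 0.14), as were all 5 stellate markers, with Lrat, the retinol acyltransferase, first (0.34, standard error 0.24). The 8 hepatocyte markers had a median of 0.03, with Serpina1c first (0.08, standard error 0.12). Among the 3 cholangiocyte markers tested, Sox9 was first (0.43, standard error 0.31). All 5 red cell markers were below 0, with Hbb-bt first (-2.11, standard error 1.07). It was -0.11 without normal saline replicate 2 and -3.55 without 4-HPAA replicate 4. Cd79a (-0.58, standard error 0.29) and Cela2a (0.34, standard error 0.29) were the single lymphocyte and pancreas markers tested, and Kdm5d (-0.14, standard error 0.11) was first of the 4 Y-linked genes. In the isoprenoid list, Pdss1, which makes the side chain of ubiquinone, was first (-0.33, standard error 0.18, unadjusted p = 0.0984, adjusted p = 1.00, edgeR), and among the clock genes Per1 was (-0.20, standard error 0.14, unadjusted p = 0.176, adjusted p = 1.00, edgeR).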
